A study of Mus musculus with 4 samples.

Results

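Radial glia are the stem cells of the developing nervous system. They are recognised by the filament proteins nestin and vimentin, by the fatty acid carrier FABP7 and by the glutamate transporter GLAST, and supporting cells of the inner ear share several of these genes. In culture, withdrawal of a growth factor normally moves such progenitors towards neurons, and astrocytes keep part of the same programme. Counts of 10 genes of this kind are described here, out of 49997 gene rows, all 10 of which were present in the files. They are the intermediate filament genes Nes, Vim and Gfap, the metabolite carriers Fabp7 and Slc1a3, the stem cell genes Prom1, Msi1 and Msi2, and the supporting cell and astrocyte genes Aqp4 and Clu. The genes were picked by name with the group comparison of these same libraries already known. Their neuron against proliferating values are therefore a description, and calls in that comparison are counted but support nothing.

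The 4 libraries held RNA of wild-type iMOP cells, a mouse line derived from inner ear (otic) progenitors and immortalized. The 2 proliferating libraries were grown in DMEM/F12 with N21 supplement, carbenicillin and 20 ng/ml bFGF, a growth factor that sustains progenitor division. The 2 neuron libraries came from cells in Neurobasal medium with N21 supplement, L-glutamine and 1 µM K03861, which inhibits CDK2, a kinase that drives the cell cycle. Both groups share the same line, and the labels do not say that the 2 libraries of a group came from separate cultures, so p-values measure only the spread between these libraries. In bulk RNA, fewer cells of a type and less RNA per cell cannot be told apart.

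Total counts ran from 3150354 to 32913243 per library. Without 7 genes of ribosomal or rRNA-like sequence, which had taken 88.2% to 98.1% of the counts, 292302 counts remained in proliferating 1, 614465 in proliferating 2, 3241915 in neuron 1 and 617872 in neuron 2. The limit that a count of 0 allows, at 3 counts, was 10.3, 4.88, 0.925 and 4.86 CPM (counts scaled to a common library total, here that of the remaining counts), in the same order. Libraries numbered 1 and libraries numbered 2 differed widely: in a model that also held the group, the quasi-likelihood test of edgeR called 2978 of 9009 tested genes, or 33.1%, at an adjusted p under 0.05. Between the groups, the summed level of 5 dividing cell markers was 184.7 and 413.4 CPM in the proliferating libraries and 1706 and 2632 CPM in the neuron libraries, while 9 neuron markers summed to 2624 and 2521 CPM against 1701 and 1190 CPM. Both sums go against the labels, and their part in the results below was not tested. Among otic progenitor markers, Eya1 had enough counts to be tested. The defining markers Pax2, Pax8, Gata3, Dlx5 and Gbx2 did not pass the count filter. Dlx5 had 4 and 3 counts in proliferating 1 and 2 and 184 and 0 counts in neuron 1 and 2.

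Upstream sequence is shown for Nes, Fabp7, Gfap and Slc1a3, each of which had counts in all 4 libraries. Prom1, at 0 in 3 libraries, is not shown. Each run is the part of the promoter window that precedes the first exon annotated there in GENCODE M21. The Gfap run precedes the first exon of the protein-coding transcripts and lies inside the gene's annotated span, which a non-coding transcript extends upstream. The windows come from the RefSeq promoter table on GRCm38.p6, which is the mm10 build. They span 250 bases before a RefSeq start and 50 after it. The Slc1a3 run, at 293 bases, goes past that start, because the GENCODE exon begins later. The table held 7 of the 10 genes, and the Vim window is not printed because it starts inside an annotated Vim exon. Capitals mark a match on either strand to 1 of 5 motifs. The core promoter motifs are the letters TATAAA of the box that positions transcription starts, the letters CCAAT, where the factor NF-Y is known to bind, and the letters GGGCGG, known for the factor SP1. The other motifs are the letters TGGGAA, which form the core for the Notch effector RBPJ, and the letters AACAAT, which SOX factors are known to recognise.
Nes, plus strand, chr3:87970843-87971077: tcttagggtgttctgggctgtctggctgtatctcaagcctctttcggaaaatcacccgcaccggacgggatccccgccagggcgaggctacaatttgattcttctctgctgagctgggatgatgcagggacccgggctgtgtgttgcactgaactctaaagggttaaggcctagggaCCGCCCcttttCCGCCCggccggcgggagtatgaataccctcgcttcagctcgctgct
Fabp7, plus strand, chr10:57784673-57784880: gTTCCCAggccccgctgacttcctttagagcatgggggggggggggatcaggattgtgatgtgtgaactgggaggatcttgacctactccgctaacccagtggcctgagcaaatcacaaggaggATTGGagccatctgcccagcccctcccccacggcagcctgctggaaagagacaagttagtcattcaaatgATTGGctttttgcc
Gfap, minus strand, chr11:102897201-102897450: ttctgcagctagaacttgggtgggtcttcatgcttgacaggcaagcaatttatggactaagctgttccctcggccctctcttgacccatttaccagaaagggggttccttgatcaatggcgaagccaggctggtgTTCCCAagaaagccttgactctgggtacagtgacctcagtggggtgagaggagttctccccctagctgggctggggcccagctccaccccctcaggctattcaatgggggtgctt
Slc1a3, minus strand, chr15:8710765-8711057: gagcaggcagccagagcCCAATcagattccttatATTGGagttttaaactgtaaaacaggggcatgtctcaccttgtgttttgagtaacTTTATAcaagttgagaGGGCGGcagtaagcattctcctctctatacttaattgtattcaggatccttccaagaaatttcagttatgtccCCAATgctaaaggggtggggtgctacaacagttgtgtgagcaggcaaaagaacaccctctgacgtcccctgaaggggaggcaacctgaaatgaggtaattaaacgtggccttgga

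Within the whole 300-base windows, 5 of the 7 genes had a CCAAT match (Vim, Fabp7, Slc1a3, Prom1 and Msi2), against 37.4% of all 32851 promoter windows in the table. GGGCGG was found for 4 of 7 (35.7% of all windows), TGGGAA for 3 (25.6%), TATAAA for 2 (13.6%) and AACAAT for 0 (10.7%). Prom1 and Msi2 have several windows, which gives them more than 1 chance of a match. Nes carried GGGCGG at 2 places and no CCAAT, while Fabp7 carried CCAAT at 2 places and no GGGCGG. No binding was measured, so a match describes letters only.

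Vim, which encodes the filament vimentin (chromosome 2, 13573927 to 13582826 in mm10), was at 2166 and 6153 CPM in proliferating 1 and 2 and 1512 and 974.3 CPM in neuron 1 and 2. Both neuron libraries lay below both proliferating libraries. In edgeR with group alone the log2 fold change (neuron over proliferating, as throughout) was -1.82, with an SE of 1.30 from 2 libraries a group. Within the libraries numbered 1 and those numbered 2, the log2 ratios of TMM-scaled CPM, set against the median of all tested genes, were -0.69 and -2.45. On counts over TMM-scaled totals, the proliferating library exceeded the neuron library by 1.58 times in the first pair (95% counting interval 1.45 to 1.71). In the second pair it did so 5.56 times (5.10 to 6.07). Such folds, here and below, are not set against the median and hold no prior count, so they can differ from the log2 ratios. These intervals are exact binomial ones and cover counting error in 1 pair of libraries only. Without proliferating 2, the highest library, the log2 fold change was -0.66.

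Nes, which encodes nestin, the filament protein used to recognise neural progenitors (chromosome 3, 87971078 to 87980451), had 632.9 and 810.5 CPM in the proliferating libraries and 737.2 and 339.9 CPM in the neuron libraries. The groups overlapped, and neuron 2 was the low library. Its log2 fold change was -0.50 (SE 1.06), with within-number ratios of 0.05 and -1.04. Nestin needs a partner filament such as vimentin to assemble, and the 2 genes did not keep a fixed proportion. Per kilobase of the authors' gene lengths, on counts without the rRNA-like genes (RPKM), Vim was at 1181, 3355, 824.6 and 531.2 and Nes at 103.3, 132.3, 120.3 and 55.48 in proliferating 1, proliferating 2, neuron 1 and neuron 2.

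Gfap, the filament of astrocytes and of adult radial glia (chromosome 11, 102887336 to 102900912), varied most between libraries of 1 group. Its levels were 311.3 and 11.39 CPM in the proliferating libraries and 71.56 and 21.04 CPM in the neuron libraries, which rest on 91, 7, 232 and 13 counts. Proliferating 1 was far above the other 3 libraries. The log2 fold change of -1.77 (SE 1.27) became 1.82 without proliferating 1, and the within-number ratios had opposite signs, -2.27 and 1.01. In the pair numbered 2 the counting interval of the neuron over proliferating fold, 0.778 to 6.21, included 1.

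**Figure D1:**
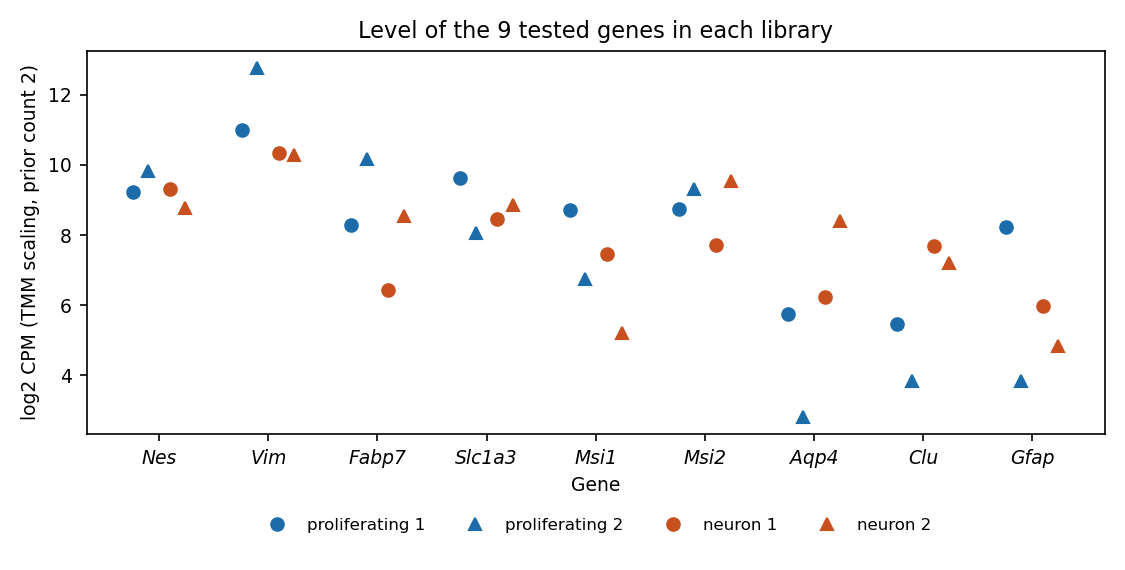
Log2 CPM (TMM scaling, prior count 2) of the 9 tested genes, 1 point per library; blue points are proliferating, orange points neuron, circles libraries numbered 1 and triangles libraries numbered 2. Vim is lower, and Aqp4 and Clu higher, in both neuron libraries than in both proliferating libraries, while Gfap spans 8.22 to 3.85 within the proliferating group.

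Fabp7, the brain fatty acid-binding protein that marks radial glia (chromosome 10, 57784881 to 57788450), had 325 and 1011 CPM in the proliferating libraries and 99.02 and 286.5 CPM in the neuron libraries. The groups did not overlap on this scale, but after TMM scaling neuron 2, at 8.53 log2 CPM, lay above proliferating 1, at 8.28. Its log2 fold change was -1.69 (SE 1.18), at -0.42 without proliferating 2, -1.01 without neuron 1 and -3.11 without neuron 2. The ratios within the numbers were alike, -1.87 and -1.60. The proliferating library held 3.62 times the neuron level in the first pair (95% counting interval 2.85 to 4.56) and 3.10 times in the second (2.62 to 3.69).

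Slc1a3, which encodes the glutamate transporter GLAST of radial glia, astrocytes and cochlear supporting cells (chromosome 15, 8634124 to 8710764), had 827.9 and 236 CPM in the proliferating libraries and 402.8 and 360.9 CPM in the neuron libraries. Both neuron libraries fell between the proliferating ones. A log2 fold change of -0.38 (SE 1.06) became 0.62 without proliferating 1. The within-number ratios went opposite ways, -1.21 and 0.82, each larger than its counting error: the counting interval of the neuron over proliferating fold was 0.385 to 0.508 in the first pair and 1.40 to 2.16 in the second.

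Msi1 and Msi2 encode the Musashi proteins, which bind messenger RNAs and hold back differentiation in stem cells. Msi1 (chromosome 5, 115429599 to 115455698) had 441.3 and 94.39 CPM in the proliferating libraries and 200.5 and 27.51 CPM in the neuron libraries. The groups overlapped, yet the neuron library was the lower in each pair, with ratios of -1.30 and -1.53. Its log2 fold change was -1.32 (SE 1.12), and it was 0.01 without proliferating 1. Msi2 (chromosome 11, 88339382 to 88718513) had 444.7 and 566.3 CPM in the proliferating libraries and 244.3 and 579.4 CPM in the neuron libraries. Neuron 1 was the low library, the log2 fold change was -0.16 (SE 1.09) and the ratios were -1.03 and 0.24. The second of these became -0.47 after a correction for GC content.

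Prom1, which encodes the membrane protein prominin-1 found on neural stem cells (chromosome 5, 43993620 to 44102032), had 0 counts in 3 libraries and 1 count in proliferating 2. It was not tested, and no fold is given because both groups were at or under the limit of 3 counts. In GENCODE M21 it shares 424 exon bases with Gm16401, a gene on the opposite strand. The strand setting of the counting is not given in the sources used here. None of the other 9 genes shares exon bases with another annotated gene.

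Aqp4, the water channel of astrocyte endfeet and cochlear supporting cells (chromosome 18, 15389496 to 15410982), had 54.74 and 4.882 CPM in the proliferating libraries and 85.44 and 262.2 CPM in the neuron libraries, from 16, 3, 277 and 162 counts. Both neuron libraries were above both proliferating libraries. Aqp4 had a log2 fold change of 2.87 (SE 1.27), at 5.19 without proliferating 1 and 1.42 without neuron 2. The pairs differed greatly in size, with ratios of 0.46 and 5.60. On counts without a prior count, neuron exceeded proliferating 1.42 times in the first pair (95% counting interval 0.857 to 2.51). In the second pair it did so 61.0 times (20.5 to 299), where the proliferating library held 3 counts.

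Clu encodes clusterin, a secreted chaperone abundant in astrocytes and in some supporting cells (chromosome 14, 65968483 to 65981547). Its levels were 44.47 and 11.39 CPM in the proliferating libraries and 236 and 113.3 CPM in the neuron libraries, from 13, 7, 765 and 70 counts. The groups did not overlap. Clu had a log2 fold change of 2.69 (SE 1.08), between 2.07 and 3.78 without any 1 of the libraries, with within-number ratios of 2.19 and 3.37. Neuron exceeded proliferating 4.81 times in the first pair (95% counting interval 2.80 to 9.08) and 11.3 times in the second (5.21 to 29.1). Clu, Fabp7 and Msi1 had counting intervals that overlapped between the pairs and excluded a fold of 1 in both. The share of all tested genes for which this holds was not worked out, so nothing is read from it. For Msi1 the intervals of the neuron over proliferating fold were 0.341 to 0.502 and 0.181 to 0.577.

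**Figure D2:**
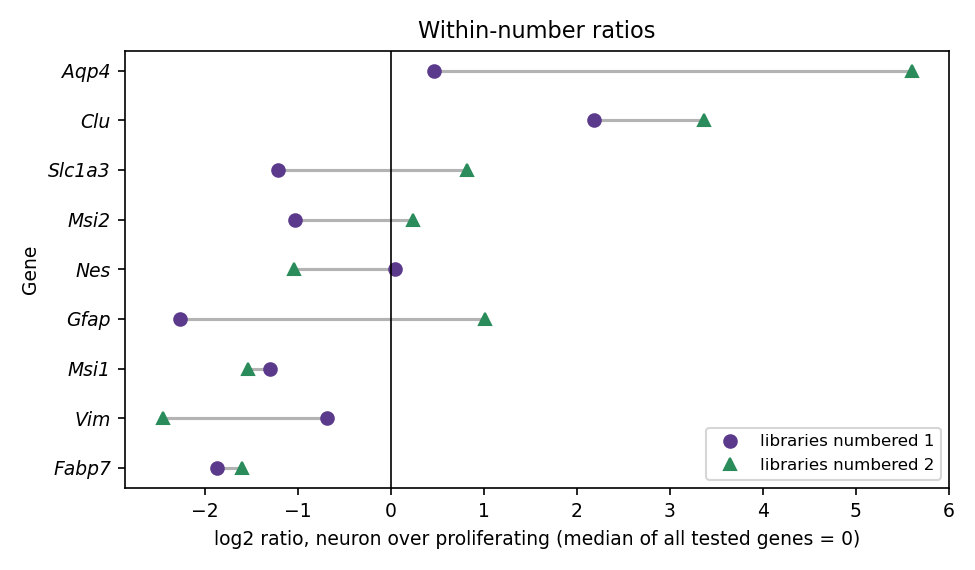
Log2 ratio, neuron over proliferating, of each tested gene within the libraries numbered 1 (circles) and those numbered 2 (triangles), with the median of all tested genes at 0. Vim, Fabp7 and Msi1 are below 0 in both pairs, Aqp4 and Clu above 0 in both, and Gfap runs from -2.27 to 1.01.

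Counted over the list, edgeR with group alone called 0 of the 9 tested genes higher and 0 lower, and 0% of all tested genes in either direction. At an unadjusted p under 0.05 it gave 97 of 9009 genes, or 1.08%, Aqp4 and Clu among them, and DESeq2 also called 0 genes. With the library number as a term in the model, Aqp4 (2.80, SE 0.78) and Clu (2.83, SE 0.67) were called higher and 0 of 9 lower, where 0.644% of all tested genes were called higher and 0.322% lower. Since this contrast was known when the genes were picked, nothing is read from these counts. Neither call remained with a GC correction added (2.18, SE 0.90, for Aqp4 and 3.19, SE 0.64, for Clu), when 0% of all genes were called higher and 0.0444% lower. On TMM-scaled log2 CPM the groups did not overlap for 2 of 9 genes that were higher in neuron (9.41% of all tested genes) and 1 of 9 that was lower (8.5%). The within-number ratios were both above the median of all genes for 2 of 9 (27.4% of all tested genes) and both below it for 3 of 9 (27.4%). The median log2 fold change of the 9 tested genes was -0.50, against -0.03 over all tested genes, but it was 0.01 without proliferating 1 and -0.85 without neuron 1. With 2 libraries against 2, an exact two-sided permutation test of a single gene cannot go below p = 0.333.

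The contrast between libraries numbered 1 and 2 was tested in a fit that leaves 1 residual degree of freedom. The genes were picked with earlier results of these data known, so these calls too are a description. Among the 9 genes, 3 were called, a share close to the 33.1% over all tested genes; 1 was higher and 2 were lower in the libraries numbered 2, against 12.7% and 20.3% of all tested genes. The log2 difference of Fabp7, number 2 over number 1, was 1.99 (SE 0.60, edgeR adjusted p = 0.0065). It was 1.88 higher within the proliferating group and 2.08 higher within the neuron group. Msi1 was lower in the libraries numbered 2, at -2.13 (SE 0.61, adjusted p = 0.00443 in edgeR), with -1.96 in the proliferating group and -2.25 in the neuron group. Gfap was lower too, at -2.77 (SE 0.72, adjusted p = 0.00166 in edgeR), with -4.37 and -1.15. For all 3 genes the fitted difference between the numbers exceeded in size the fitted difference between the groups. They were singled out by their call in the number contrast, which favours that order. The comparison was not itself tested, and nothing is read from it. The GC content of the longest transcript was 57.9% for Msi1, 55.5% for Gfap and 42.6% for Fabp7. The tested genes that were not called had similar values. These were 55.5% for Nes, 55.6% for Clu, 46.5% for Vim, 45.7% for Slc1a3, 42.3% for Msi2 and 41.4% for Aqp4. A part of GC content in the difference between the numbers was not tested. With a GC correction 0 of the 9 genes were called, and 3.9% of all tested genes.

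**Figure D3:**
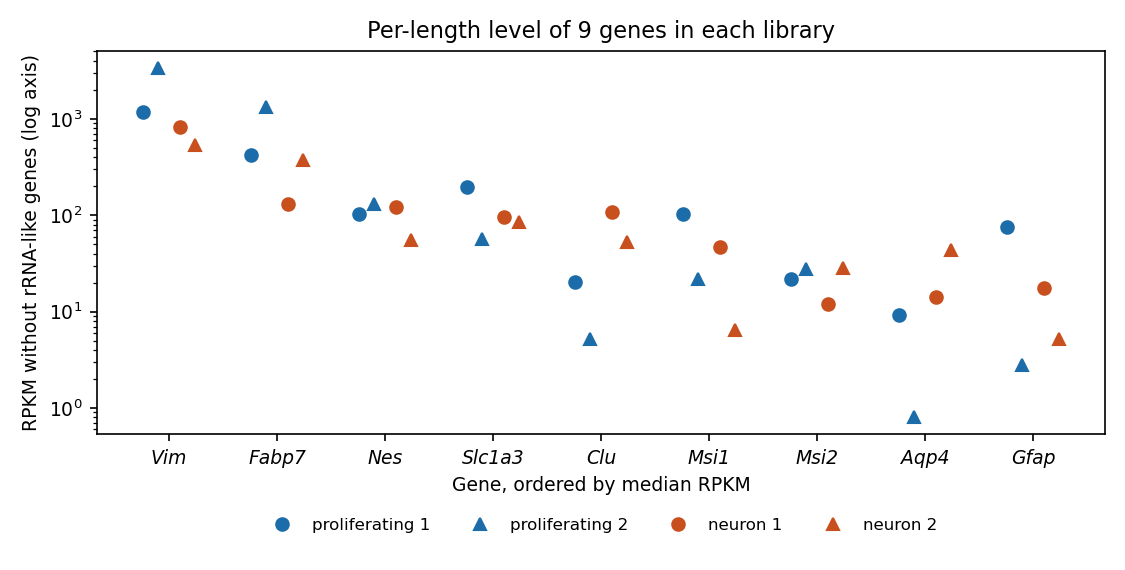
RPKM on counts without rRNA-like genes, log axis, for 9 genes ordered by their median over the libraries; Prom1, at 0 in 3 libraries, is left out. Blue is proliferating, orange neuron, circles number 1 and triangles number 2, and Vim is the highest and Fabp7 the second in all 4 libraries by the authors' gene lengths, an order that changes in both neuron libraries per kilobase of merged exons.

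The order of per-length levels depended on the gene length used. By the authors' lengths Vim ranked first and Fabp7 second among the 10 genes in all 4 libraries. The authors' length of Vim is 1834 bases and that of Fabp7 762, against 4743 and 1250 bases of merged exons in GENCODE M21. Per kilobase of merged exons, a setting added after the data were examined, Fabp7 was above Vim in neuron 2 (229.2 and 205.4 RPKM) and Nes above Fabp7 in neuron 1 (114.9 and 79.21 RPKM). The levels that follow use the authors' lengths. Fabp7 was at 426.5 and 1326 RPKM in the proliferating libraries and at 129.9 and 375.9 in the neuron libraries, and in neuron 1 it was close to Nes, at 120.3, and Clu, at 108.8. Nes and Slc1a3 exchanged places from library to library, where per kilobase of merged exons Nes was above Slc1a3 in all 4, and Slc1a3 ranked just below Clu in neuron 1. Clu stood at 20.51 and 5.255 RPKM in the proliferating libraries, in places 8 and 7, and at 108.8 and 52.26 in the neuron libraries, in places 4 and 5 (4 and 7 per kilobase of merged exons). Aqp4 moved from 9.112 and 0.8128 RPKM to 14.22 and 43.65. Msi2 stayed between 11.94 and 28.33 RPKM. Its length in the authors' values is 20454 bases, against 10405 bases of merged exons in GENCODE M21, so its per-length level is lower here than that annotation would give. Together the 10 genes made up 0.525% of the remaining counts in proliferating 1, 0.89% in proliferating 2, 0.359% in neuron 1 and 0.297% in neuron 2.

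Genes with the most similar profile over the 4 libraries were taken by the smallest Euclidean distance between centred log2 CPM values. The candidates were the 7499 protein-coding or long non-coding genes whose log2 CPM averaged 4 or more, without predicted genes, clone names and small RNAs. Nes was nearest to Sh2b3 (distance 0.10) and Etv6 (0.12), and Vim to Cited2 (0.15) and Tmsb4x (0.29), the actin-binding thymosin beta. Gfap was nearest to Pld2 (0.05) and Msi2 to Rpl23a (0.15). Aqp4 had no close neighbour, the nearest being Dok6 at 1.18. Among the described genes themselves Nes and Vim were the closest pair, at 1.39. The Musashi genes were 3.54 apart. With 4 libraries many genes have such profiles by number and group, so the distances are descriptions.

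Other genes of the same cell types came from lists that were likewise drawn up with earlier results known, and edgeR with group alone called 0 in each of them. Of 20 other radial glia and neural progenitor genes 18 were tested. Of these, 2 had a positive log2 fold change and 16 a negative one, where 4642 of all 9009 tested genes had a negative one. The median was -1.04, against -0.03 for all tested genes. Tnc, the matrix protein tenascin-C of radial glia and reactive astrocytes, was lower with the library number in the model, at -3.43 (SE 0.66, adjusted p = 0.0009 in edgeR). It was the 1 called gene of 18 in that fit, where 0.322% of all tested genes were called lower. With a GC correction Tnc was at -3.13 and not called (adjusted p = 0.0683 in edgeR). The receptor phosphatase Ptprz1 and N-cadherin, Cdh2, had the highest mean log2 CPM of the list, with log2 fold changes of -0.28 (SE 1.02) and -0.62 (SE 1.02). Within-number ratios were both below the median for 11 of the 18 (27.4% of all tested genes) and both above it for 0 (27.4%).

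Of 18 other cochlear supporting cell genes 8 were tested and 0 were called in either fit. All 8 had negative log2 fold changes, as did 4642 of all 9009 tested genes. The median was -0.49, and the groups overlapped for each of the 8. The hyaluronan receptor Cd44 was at -0.91 (SE 1.06) and the transcription factor Prox1 at -0.45 (SE 0.95). The gap junction genes Gjb2 and Gjb6, defining for mature supporting cells, were too low to be tested.

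Of 15 mature astrocyte genes 12 were tested, and 10 had negative log2 fold changes, as did 4642 of all 9009 tested genes. The median was -0.87. With the library number in the model 0 were called higher and 2 lower, where 0.644% of all tested genes were called higher and 0.322% lower. Id3, an inhibitor of helix-loop-helix factors, was at -3.59 (SE 0.73, adjusted p = 0.00164 in edgeR), and Aldoc, the brain aldolase, at -2.41 (SE 0.67, adjusted p = 0.0449 in edgeR). With a GC correction they were at -3.24 and -2.20 and neither was called (adjusted p = 0.103 and 0.252 in edgeR). Sparcl1, a secreted matricellular protein, and Cst3, the protease inhibitor cystatin C, had the highest mean log2 CPM and were at 0.03 (SE 1.02) and -1.31 (SE 1.31). Aldh1l1, S100b and Gja1, all defining for astrocytes, were too low to be tested.

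Among 19 other intermediate filament genes 6 were tested and 0 called in either fit, with a median of 0.04. The nuclear lamin gene Lmnb1 was at 0.42 (SE 1.04) and Plec, which links filaments to the membrane, at -0.33 (SE 1.27). The keratin genes Krt8, Krt18 and Krt19 and the neurofilament genes Nefl, Nefm and Nefh did not pass the count filter. Nefh had 0 and 2 counts in proliferating 1 and 2 and 120 and 8 counts in neuron 1 and 2 (0, 3.255, 37.02 and 12.95 CPM). Of 12 genes related by family to the carriers and channels, 3 were tested and 0 called, with a median of -0.25. Slc1a4 was at -0.44 (SE 1.03) and Fabp5 at -0.25 (SE 1.06), while Slc1a5, named to complete the 3, was at 2.17 (SE 1.25). None of the other aquaporin genes in that list (Aqp1, Aqp3, Aqp5, Aqp9 and Aqp11) had enough counts to be tested.

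**Figure D4:**
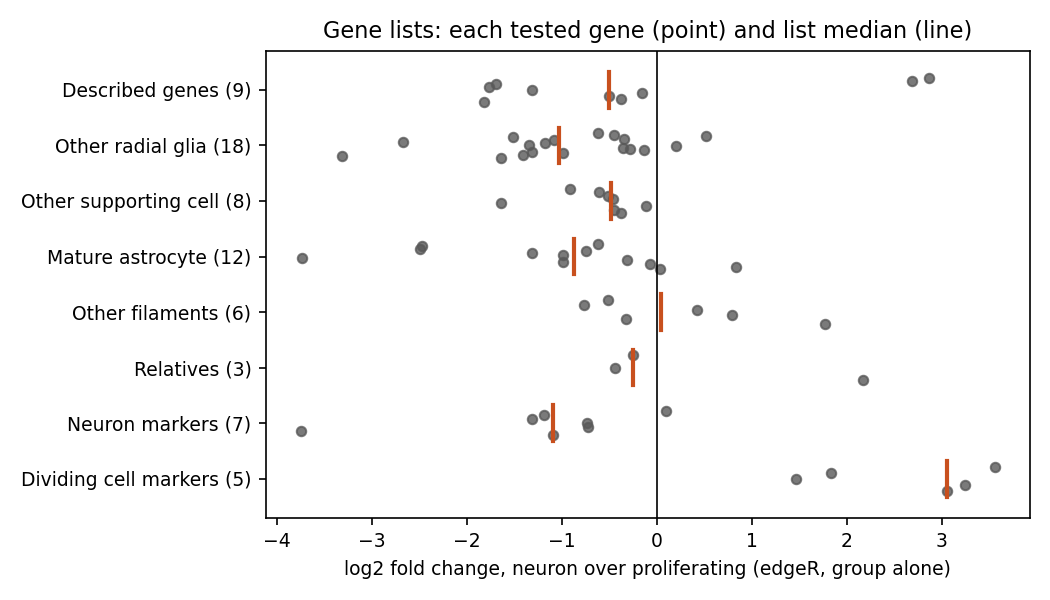
Log2 fold change, neuron over proliferating, in edgeR with group alone, 1 point per tested gene and an orange line at each list's median; the number of tested genes stands in brackets. The described genes range from -1.82 for Vim to 2.87 for Aqp4, and the other radial glia genes have a median of -1.04.

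Markers of other cell types are given for comparison. The 8 oligodendrocyte lineage markers summed to 561.1 and 411.7 CPM in the proliferating libraries and to 176.7 and 63.12 CPM in the neuron libraries, with 2 of 3 tested genes, Olig1 and Olig2, called lower with the library number in the model (0.322% of all tested genes). With a GC correction added they were at -2.31 and -3.07 and were not called (adjusted p = 0.247 and 0.0683 in edgeR). The 7 hair cell markers summed to 109.8 to 321.6 CPM and the 7 mesenchyme markers to 97.11 to 426.4 CPM over the 4 libraries. The groups overlapped, and of each list 2 genes were tested and 0 called. Each sum came mostly from 1 gene. Myo6 gave 301.1 of the 321.6 CPM in proliferating 1, and Pou3f4 gave 387.3 of the 426.4 CPM in proliferating 2. The hair cell genes Pou4f3 and Otof and the collagen gene Col1a2 were at 0 in all 4 libraries, so the sums do not show these cell types. The 5 immune cell markers summed to at most 13.68 CPM, and 0 of them could be tested.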

How the data were processed

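The authors deposited raw counts per gene and RPKM values, 1 file of each per library. The build was mm10 and HISAT2, featureCounts, SAMtools and DESeq2 were among the tools, per the submitters' processing notes; versions, annotation and strand setting are not given in the sources used here. Per the labels' protocols, rRNA-depleted total RNA went into a stranded kit. Counts divided by deposited RPKM and library total gave 1 gene length per gene in 17709 of 17709 genes (relative tolerance 0.001), and those lengths were used for per-length levels. The 7 rRNA-like genes (mt-Rnr1, mt-Rnr2, Rn18s-rs5, AY036118, Gm15564, Mir6236 and Lars2) were set aside first. Counts were tested with edgeR 4.0.16 in R 4.3.3 (quasi-likelihood, TMM, filterByExpr, 9009 genes, Benjamini-Hochberg threshold 0.05). Log2 CPM used a prior count of 2. Limma 3.58.1 and DESeq2 1.42.0 were alternatives, as were other scalings, filters, a term for the library number, a GC correction (spline, 5 degrees of freedom) and leaving out each library. The 10 genes and all lists were chosen with earlier results of these data known. By rule, all 10 genes were named, and from each other list the 2 tested genes with the highest mean log2 CPM and any called gene. Markers of other cell types and genes named as absent stand outside that rule. One marker of the otic progenitor list, and the summed level of that list, are not reported here.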

Additional observations from a re-analysis of the deposited data

How the results depend on the processing

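The fit with group alone called 0 genes in both directions under each scaling, filter and tool run and without each library. The Pearson correlation across genes was 0.78 and 0.82 within the same-numbered pairs, and values for other pairs are not given here for comparison. Deviations from the group mean correlated at 0.74 between proliferating 1 and neuron 1, but 2 pairs cannot show that equal numbers mark paired cultures. With the replicate block, 58 genes were called higher and 29 lower, and with the block and a GC correction 0 and 4. Combined with the block, settings added after the data were examined gave 23 and 9 with DESeq2 size factors, 36 and 19 with library totals alone, 42 and 15 with rRNA-like genes kept, 42 and 31 in DESeq2, and 93 and 67 in limma voom. Under these, Clu kept its call in all 5 and Aqp4 in those with rRNA-like genes kept and in voom (adjusted p = 0.0472 in edgeR with the block alone, 0.00414 to 0.199 over these 5, and 0.623 with the block and a GC correction). Fabp7 was called lower in DESeq2 with the block (-1.77, adjusted p = 0.02). For libraries numbered 2 against 1, the counts of 1148 higher and 1830 lower became 417 higher with library totals alone, 571 higher without a filter, 741 and 1063 in DESeq2, 646 higher with number alone, and 184 and 167 with GC correction. The GC correction of this contrast, and the other scalings of non-overlapping groups and within-number ratios, were also added after the data were examined. Genes described with non-overlapping lower groups numbered 1 with TMM (8.5% of all tested genes), 2 with library totals alone (Vim and Fabp7; 7.84%) and 4 with GC correction (also Msi1 and Msi2; 14.2%).

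Vim, Fabp7, Aqp4 and Clu kept their direction under all 20 settings, which reuse the same 4 libraries. Their values ran from -2.43 to -0.41, -3.11 to -0.42, 1.30 to 5.19 and 2.07 to 3.78 in that order. The share of all tested genes that kept their direction was not worked out, so nothing is read from it. On deposited RPKM, whose totals include rRNA, the signs of 3 genes turned: with pseudocounts of 0.1 and 1, Nes was at 0.64 and 0.54, Slc1a3 at 0.90 and 0.60 and Msi2 at 0.67 and 0.35. Leaving out 1 library gave values from -0.93 to 0.62 for Slc1a3, -2.97 to 0.01 for Msi1 and -2.69 to 1.82 for Gfap, each positive without proliferating 1, and from -1.35 to 0.44 for Msi2, positive without neuron 1 or proliferating 2 (0.20). The within-number ratio of Msi2 in the libraries numbered 2 turned to -0.47 with GC correction. The cause was not tested. Depth limits Gfap, Clu and Aqp4 in proliferating 2, which rest on 7, 7 and 3 counts.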
